A study of Mus musculus with 19 samples.

Results

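The conventional dendritic cell type 1 genes described here are the 10 genes Id2, Batf3, Zbtb46, Clec9a, Xcr1, Itgax, Cd209a, Tlr3, Ifi205 and Plbd1, out of 15781 genes measured on Affymetrix mouse exon arrays. They were chosen by name, with their higher levels in Dnmt3a-/- progenitors already known. Each gene's level was the mean log2 intensity of the probe sets annotated to that gene alone on each of 19 arrays. The genes of MHC class II, the antigen-presenting molecules, were left out. All samples were progenitor populations sorted from mouse bone marrow, where CMP are common myeloid progenitors and GMP are granulocyte-monocyte progenitors. The groups were 4 arrays of PR+/- Dnmt3a-/- GMP, 2 of PR+/- GMP, 3 of Dnmt3a-/- CMP, 3 of wild-type CMP, 3 of Dnmt3a-/- GMP and 4 of wild-type GMP. By the series' title PR should stand for PML-RARA, the fusion gene of acute promyelocytic leukaemia, and Dnmt3a encodes a DNA methyltransferase that places new methyl groups on CG sites. The 13 arrays without PR come from C57Bl/6J mice. The labels of the 6 PR+/- arrays give no strain, and the promoter that drives PR, the kind of Dnmt3a deletion, ages and pooling are not given in the sources used here. The 6 PR+/- arrays are labelled in a different way from the 13 others, so PR and the set of arrays cannot be told apart. Array means are of bulk RNA, so more cells of a type and more RNA per cell cannot be told apart.

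Type 1 conventional dendritic cells (cDC1) take up dying cells and present their antigens to CD8 T cells, which makes them important in immunity to viruses and tumours. Their formation from bone marrow progenitors needs the transcription factors Irf8 and Batf3 and the inhibitor protein Id2, which blocks the DNA binding of E proteins. Mature cDC1 are recognised by the lectin Clec9a and the chemokine receptor Xcr1 and carry the RNA sensor Tlr3. Not all 10 genes are specific to cDC1. Zbtb46 and Itgax, which encodes CD11c, mark conventional dendritic cells of all types, and Cd209a is known from type 2 and monocyte-derived dendritic cells. Id2 is also active in innate lymphoid and other cells, and Plbd1 in other myeloid cells.

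RefSeq's promoter table of mouse build GRCm38.p6 holds, for each of the 10 genes, the 250 bases before and the 50 bases after 1 transcript start. For 6 genes that start is the outermost end of the annotated gene. It lies 24 bases inside the gene for Itgax, 410 for Plbd1, 695 for Tlr3 and 68874 for Zbtb46, so the Zbtb46 window is that of an internal start. The table's coordinates are not those of the arrays, whose processing notes name mm9. The promoters of the 4 genes with the largest differences between Dnmt3a-/- and wild-type CMP are shown, since the comparison concerns an enzyme that acts on CG sites. Capitals mark CG in the first 3. In that of Ifi205 they mark GAAA, any 2 bases and GAAA again, on either strand. Id2 lies at chr12:25096043-25096342, Tlr3 at chr8:45410331-45410630, Plbd1 at chr6:136661844-136662143 and Ifi205 at chr1:174031706-174032005, all on the minus strand and all printed 5′ to 3′ along the gene.
Id2: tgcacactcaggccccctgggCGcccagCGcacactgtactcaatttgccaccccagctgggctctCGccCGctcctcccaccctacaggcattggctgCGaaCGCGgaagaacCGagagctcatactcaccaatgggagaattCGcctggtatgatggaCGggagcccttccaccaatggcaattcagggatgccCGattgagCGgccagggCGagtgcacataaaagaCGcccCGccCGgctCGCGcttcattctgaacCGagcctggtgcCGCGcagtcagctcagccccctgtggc
Tlr3: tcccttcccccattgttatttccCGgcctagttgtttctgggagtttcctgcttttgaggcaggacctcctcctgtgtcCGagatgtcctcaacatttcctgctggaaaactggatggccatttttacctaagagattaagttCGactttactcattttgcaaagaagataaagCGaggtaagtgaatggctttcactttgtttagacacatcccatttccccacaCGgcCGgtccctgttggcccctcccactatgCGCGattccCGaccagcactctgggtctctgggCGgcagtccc
Plbd1: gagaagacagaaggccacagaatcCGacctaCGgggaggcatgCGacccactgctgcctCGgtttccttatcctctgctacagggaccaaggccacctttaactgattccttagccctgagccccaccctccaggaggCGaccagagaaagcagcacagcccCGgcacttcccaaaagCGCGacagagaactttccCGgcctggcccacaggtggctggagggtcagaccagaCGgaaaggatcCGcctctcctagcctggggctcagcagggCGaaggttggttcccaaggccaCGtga
Ifi205: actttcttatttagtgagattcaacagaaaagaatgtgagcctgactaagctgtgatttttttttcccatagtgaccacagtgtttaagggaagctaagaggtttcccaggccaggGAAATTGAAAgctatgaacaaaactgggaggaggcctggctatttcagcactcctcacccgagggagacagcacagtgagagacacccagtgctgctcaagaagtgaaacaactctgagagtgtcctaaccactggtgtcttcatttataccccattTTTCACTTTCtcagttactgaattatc
The 300-base window held 21 CG sites in Id2, 10 in Tlr3, 13 in Plbd1 and 1 in Ifi205, against a median of 7 over 32851 promoters. Among the other 6 genes the number was 34 in Batf3, 6 in Xcr1, 5 in Itgax, and 1 each in Zbtb46, Clec9a and Cd209a. The genes with large differences thus had both CG-rich and CG-poor promoters. Methylation was not measured on these arrays. This pair of GAAA, a core shared by elements that bind interferon regulatory factors, occurred 2 times in Ifi205, at positions -134 to -125 as printed and 23 to 32 on the opposite strand, counted with the transcript's first base as 0. As many matches or more were found in 0.225% of all promoters, and 3.44% held at least 1. None of the other 9 windows held these letters. CANNTG, the E-box of E proteins, occurred in 8 of the 10 windows and in 72.3% of all promoters, with 6 matches in the window of Zbtb46. TGANTCA, the AP-1 element, occurred in Zbtb46 and Itgax, and in 7.81% of all promoters. Both strands were searched and each motif was counted apart from the others. A match is a match of letters in this window and not a measured binding site.

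Dnmt3a itself had levels of 5.82 to 6.26 on the PR+/- Dnmt3a-/- GMP arrays and 7.07 to 7.20 on the PR+/- GMP arrays, 6.37 to 6.49 in Dnmt3a-/- CMP and 7.24 to 7.65 in wild-type CMP, and 6.06 to 6.22 in Dnmt3a-/- GMP and 7.30 to 7.59 in wild-type GMP. Every array labelled Dnmt3a-/- thus lay below every array with Dnmt3a. The 28 measured genes of a list of other tissues (liver, heart, eye and the like) had a median level of 3.85 and a 90th percentile of 4.79, and these values are used as background. A mean level of 12 immediate early genes was high, 7.80 to 9.05, on 5 arrays (PR+/- Dnmt3a-/- GMP replicates 1 and 2, wild-type CMP replicate 1, wild-type GMP replicates 1 and 2) and 5.96 to 7.17 on the others. The mean level of 2 Y-linked genes was low, 2.54 to 3.25, on the 6 Dnmt3a-/- arrays without PR, on PR+/- Dnmt3a-/- GMP replicate 2, wild-type CMP replicate 3 and wild-type GMP replicate 4, and 6.73 to 7.25 on the others. Both lists move in part with the genotype. Without PR, all Dnmt3a-/- arrays had low Y-linked signal, and only 1 wild-type array of each population did. Genotype and Y-linked signal can therefore hardly be told apart there. With Y-linked signal entered as a covariate, limma's calls of Batf3 and Cd209a in CMP and of Ifi205 in GMP between Dnmt3a-/- and wild type were lost. Without the 5 arrays of high immediate early genes that of Batf3 in CMP was lost, as were those of Clec9a, Tlr3 and Plbd1 between PR+/- Dnmt3a-/- and Dnmt3a-/- GMP and of Id2 and Itgax between wild-type GMP and CMP.

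Id2, whose protein holds E proteins off DNA, was high wherever Dnmt3a was missing without PR. Its log2 levels were 8.59, 8.86 and 9.42 in Dnmt3a-/- CMP and 6.65, 6.15 and 6.49 in wild-type CMP. In GMP they were 7.15, 7.16 and 7.04 without Dnmt3a and 5.28, 5.30, 5.56 and 5.58 in wild type. The genotypes did not overlap in either population. The difference was 2.53 ± 0.20 in CMP (log2, SE, 3 against 3 arrays), or 5.76-fold, and 1.69 ± 0.19 in GMP (3 against 4 arrays), or 3.22-fold. In the PR+/- background the levels were 6.75, 5.91, 7.67 and 7.55 in PR+/- Dnmt3a-/- GMP and 7.57 and 7.87 in PR+/- GMP. These overlapped each other, and all 6 lay above every wild-type GMP array. Ordered by group mean, Id2 was highest in Dnmt3a-/- CMP (8.96 ± 0.43, SD, n = 3). There followed PR+/- GMP (7.72 ± 0.21, n = 2), Dnmt3a-/- GMP (7.11 ± 0.07, n = 3) and PR+/- Dnmt3a-/- GMP (6.97 ± 0.82, n = 4). Wild-type CMP (6.43 ± 0.26, n = 3) and wild-type GMP (5.43 ± 0.16, n = 4) came last. The arrays of PR+/- Dnmt3a-/- GMP overlapped those of PR+/- GMP and Dnmt3a-/- GMP above them and of wild-type CMP below them.

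Batf3, an AP-1 family factor that works with Irf8 in cDC1, had levels of 6.11, 6.41 and 6.56 in Dnmt3a-/- CMP and 4.24, 5.09 and 5.34 in wild-type CMP. These did not overlap, with a difference of 1.47 ± 0.29, or 2.77-fold. In GMP the levels were 4.99, 4.22 and 5.27 without Dnmt3a and 4.94, 4.87, 4.82 and 4.63 in wild type, which overlapped, as did 4.95, 5.14, 4.86 and 4.58 in PR+/- Dnmt3a-/- GMP and 4.72 and 4.29 in PR+/- GMP. Outside Dnmt3a-/- CMP all Batf3 group means lay within 4.50 to 4.89, close to the upper end of the background. Zbtb46, a repressor found in conventional dendritic cells, had levels of 5.03, 5.39 and 5.57 in Dnmt3a-/- CMP and 5.09, 4.83 and 4.88 in wild-type CMP. Here the arrays overlapped, and the difference was 0.39 ± 0.25. In the 4 GMP groups the Zbtb46 means were between 4.30 and 4.79.

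**Figure D1:**
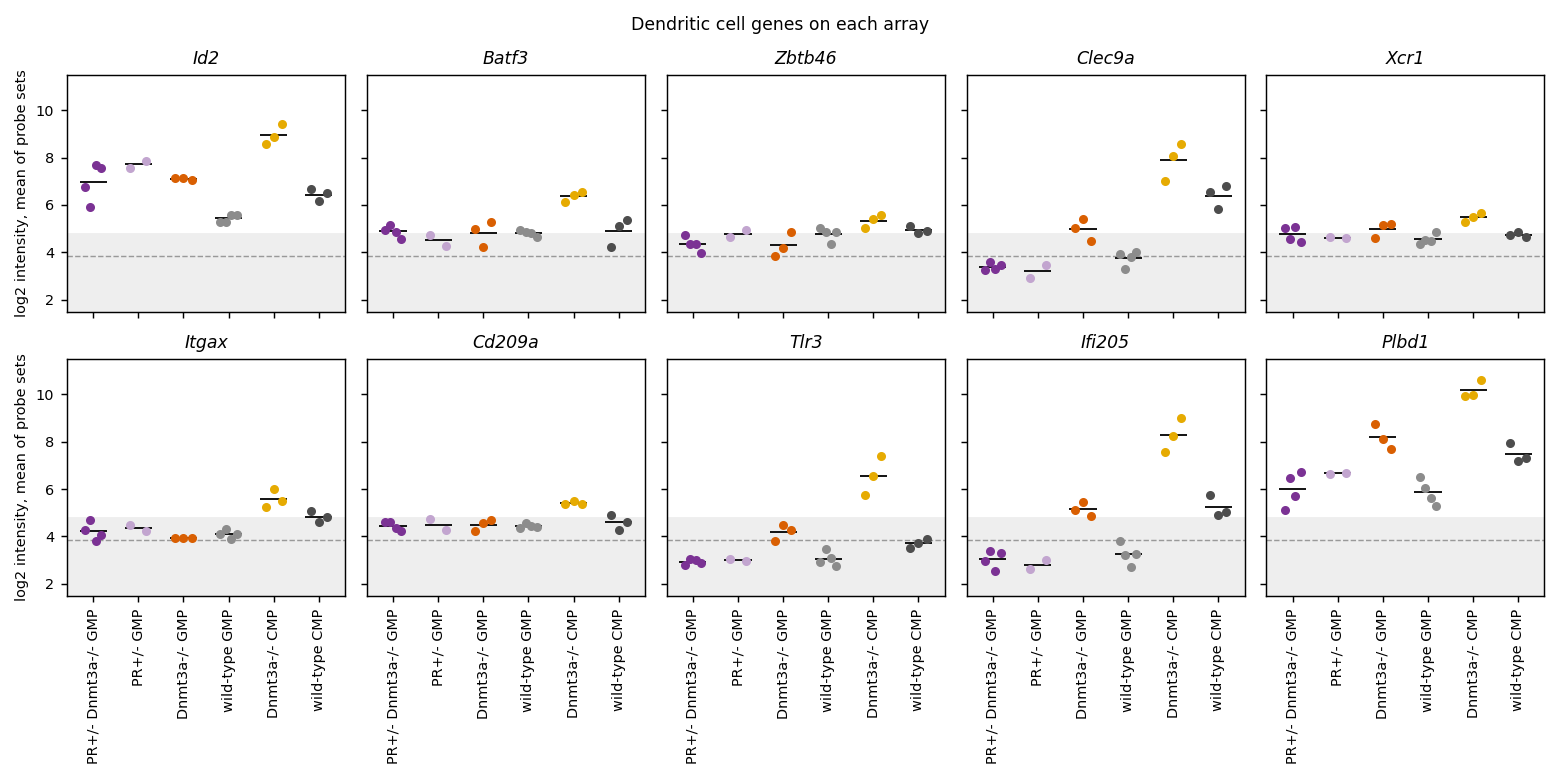
Log2 level of each of the 10 genes (mean of its probe sets) on each of 19 arrays, by group, with a point per array and a bar at the group mean; the dashed line is the median and the grey band ends at the 90th percentile of 28 genes of other tissues. Dnmt3a-/- CMP holds the highest group mean of all 10 genes, while Xcr1, Zbtb46, Itgax and Cd209a stay close to the grey band in the other 5 groups.

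Among the surface receptors Clec9a, a lectin that binds actin exposed on dying cells, had levels of 6.99, 8.08 and 8.55 in Dnmt3a-/- CMP and 6.53, 5.83 and 6.80 in wild-type CMP. The arrays did not overlap, although the lowest Dnmt3a-/- array lay only just above the highest wild-type one, and the difference was 1.49 ± 0.37, or 2.81-fold. In GMP the Clec9a levels were 5.02, 5.42 and 4.48 without Dnmt3a and 3.92, 3.31, 3.82 and 4.0 in wild type. The wild-type GMP mean of 3.77 ± 0.31 (SD, n = 4) lay below the background median, so the difference of 1.21 ± 0.35 is at least 1.13 against background. On all 6 PR+/- arrays Clec9a was between 2.93 and 3.58, below that median.

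Xcr1, the receptor for the chemokine XCL1, had levels of 5.26, 5.50 and 5.65 in Dnmt3a-/- CMP and 4.73, 4.85 and 4.63 in wild-type CMP, a difference of 0.73 ± 0.19 without overlap. In GMP the genotypes overlapped (0.43 ± 0.18). Itgax, which encodes the integrin alpha chain CD11c, had levels of 5.24, 6.01 and 5.49 in Dnmt3a-/- CMP and 5.07, 4.60 and 4.83 in wild-type CMP. These did not overlap, with a difference of 0.75 ± 0.19. In GMP its levels were 3.92, 3.94 and 3.95 without Dnmt3a and 4.13, 4.33, 3.91 and 4.09 in wild type, all within the range of the background genes. Cd209a, a lectin of the DC-SIGN family, had levels of 5.35, 5.49 and 5.36 in Dnmt3a-/- CMP and 4.91, 4.29 and 4.60 in wild-type CMP, a difference of 0.80 ± 0.17 without overlap. In GMP it was 0.06 ± 0.16 with overlap. The means of Xcr1, Itgax and Cd209a in the 3 GMP groups other than Dnmt3a-/- GMP were at or below the background's 90th percentile of 4.79.

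Both nucleic acid sensors were among the 4 genes with the largest differences in CMP. Tlr3, an endosomal receptor for double-stranded RNA, had levels of 5.73, 6.54 and 7.38 in Dnmt3a-/- CMP and 3.53, 3.74 and 3.88 in wild-type CMP. The wild-type mean of 3.72 ± 0.17 (SD, n = 3) lay below the background median, so the difference of 2.84 ± 0.33 is at least 2.71 against background. In GMP the levels of Tlr3 were 3.79, 4.48 and 4.25 without Dnmt3a and 2.92, 3.49, 3.09 and 2.76 in wild type. These did not overlap, but the difference of 1.11 ± 0.31 is at least 0.33 against background. On the PR+/- arrays Tlr3 stayed between 2.80 and 3.07. Ifi205, a member of the interferon-inducible HIN-200 family, had levels of 7.58, 8.25 and 9.0 in Dnmt3a-/- CMP and 5.77, 4.92 and 5.05 in wild-type CMP. Its difference of 3.03 ± 0.35, or 8.17-fold, was the largest of the 10 genes in CMP. In GMP its levels were 5.10, 5.46 and 4.87 without Dnmt3a and 3.82, 3.22, 2.71 and 3.28 in wild type. There was again no overlap, with a difference of 1.89 ± 0.33 that is at least 1.30 against background. On the PR+/- arrays Ifi205 was between 2.53 and 3.39.

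Plbd1, a phospholipase B-like lysosomal protein, had levels of 9.92, 9.98 and 10.60 in Dnmt3a-/- CMP and 7.94, 7.18 and 7.30 in wild-type CMP. In GMP they were 8.75, 8.10 and 7.71 without Dnmt3a and 6.49, 6.04, 5.63 and 5.29 in wild type. No array of 1 genotype reached the other in either population. The difference was 2.69 ± 0.33, or 6.46-fold, in CMP and 2.32 ± 0.31, or 5.01-fold, in GMP. In the PR+/- background Plbd1 had levels of 5.13, 6.47, 5.72 and 6.73 in PR+/- Dnmt3a-/- GMP and 6.65 and 6.68 in PR+/- GMP, which overlapped.

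Single probe sets show how broadly each difference was carried along the transcript. In CMP all 13 probe sets of Plbd1, all 3 of Ifi205 and all 4 of Id2 were higher by more than 1 log2 unit in Dnmt3a-/- than in wild type without overlap. For Tlr3 16 of 17 were higher by more than 1 and 15 did not overlap, with a median of 3.09. For Clec9a 8 of 9 were higher by more than 1, but only 4 did not overlap, with a median of 1.75. Batf3 was less even. The differences of its 6 probe sets ran from -0.11 to 3.42, and with only its brighter probe sets the gene's difference was 0.27. In GMP the Batf3 probe sets ran from -0.88 to 2.72, with 1 higher and 2 lower without overlap. The probe set at 2.72 in GMP was the one at 3.42 in CMP, so the Batf3 mean in GMP averages probe sets that disagree. Of the 4 probe sets of Xcr1 only 1 had a mean above the background's 90th percentile, at 8.24, and that probe set differed by 0.27 with overlap. Of the 28 probe sets of Itgax 24 were above 0 and 8 did not overlap. In CMP the 8 probe sets of Cd209a ran from -0.03 to 2.47, with 2 higher by more than 1 and 3 without overlap. For Ifi205, which has close relatives in its gene cluster, signal of those genes on its probe sets was not tested.

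**Figure D2:**
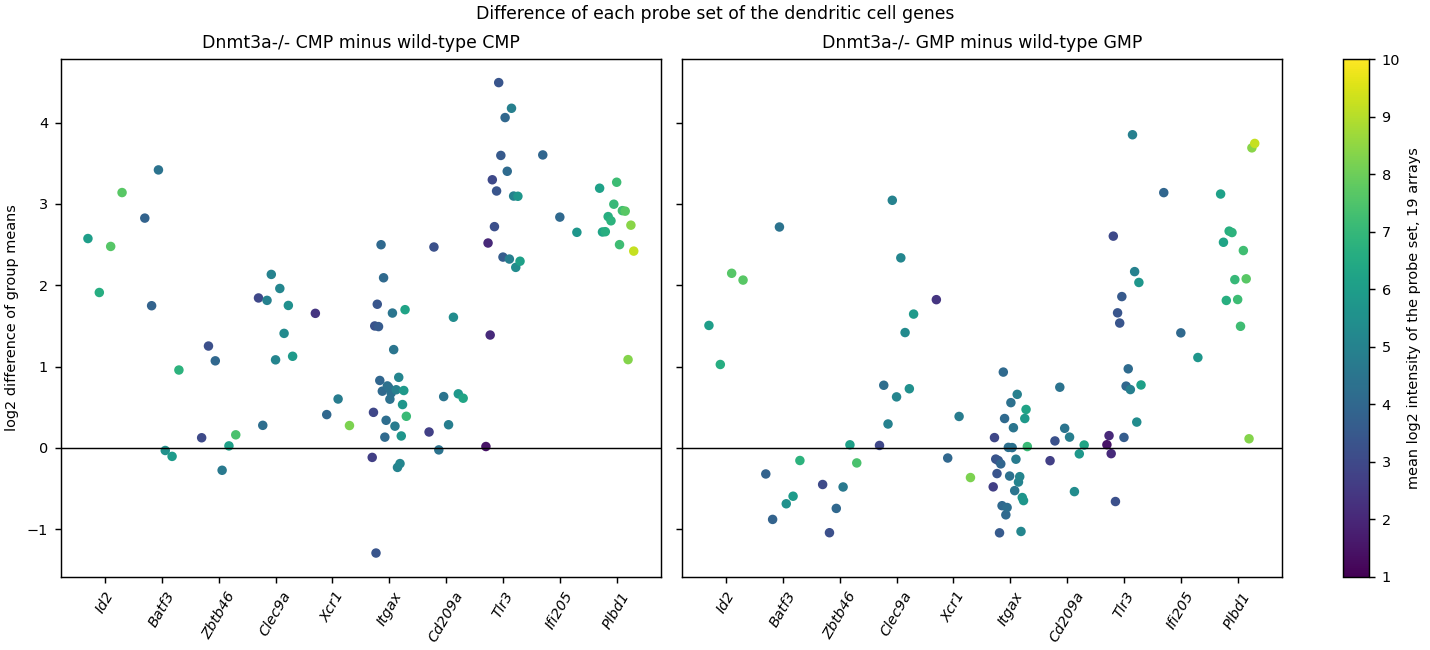
Log2 difference of group means for each of 98 probe sets of the 10 genes in CMP (left) and GMP (right), coloured by the probe set's mean log2 intensity over 19 arrays and ordered within a gene from dim to bright. The points of Id2, Tlr3, Ifi205 and Plbd1 lie above 0 in CMP, while those of Batf3 and Itgax are spread to both sides of 0 in GMP.

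All 10 differences were above 0 in Dnmt3a-/- CMP against wild-type CMP, and 9 did not overlap, Zbtb46 being the exception. The same absence of overlap with higher levels was seen in 10.1% of all genes. Limma called 6 of the 10 higher (Id2, Batf3, Cd209a, Tlr3, Ifi205 and Plbd1; adjusted p below 0.05 over all genes), beside 0.919% of all genes called higher, 0.361% called lower and 1.28% called in either direction. Since the genes were chosen with this comparison known, nothing is read from these counts. The calls of Batf3 and Cd209a were lost in 5 of the 6 fits without 1 array. Batf3 kept its call only without wild-type CMP replicate 3, and Cd209a only without wild-type CMP replicate 1. The calls of Id2, Tlr3, Ifi205 and Plbd1 held in all 6 of these fits and in 10 other settings. The median difference of the 10 genes was 1.48, against -0.04 over all genes.

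In Dnmt3a-/- GMP against wild-type GMP 8 differences were above 0. Of the 10, 5 (Id2, Clec9a, Tlr3, Ifi205 and Plbd1), were higher without overlap, beside 7.88% of all genes, and none was lower without overlap, beside 8.73%. Limma called 3 of these, Id2, Ifi205 and Plbd1, beside 0.9% of all genes called higher and 1.33% in either direction, and nothing is read from these counts either. The call of Ifi205 was lost without Dnmt3a-/- GMP replicate 1 and without replicate 2. The median difference was 0.77, against -0.07 over all genes. Set side by side, each gene's difference was larger in CMP than in GMP, beside 52.6% of all genes. Nothing is read from this, since the genes were chosen with both differences known. For Tlr3, Ifi205 and Clec9a the wild-type GMP means lay below the background median, where part of a difference may be hidden. The gap between both differences was 1.73 ± 0.45 for Tlr3, 1.46 ± 0.39 for Batf3, 1.14 ± 0.48 for Ifi205 and 0.84 ± 0.27 for Id2, and 0.28 ± 0.51 for Clec9a and 0.37 ± 0.46 for Plbd1. In this comparison of differences limma called 0.0% of all 15781 genes (0 genes, 1083 at an unadjusted p below 0.05).

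**Figure D3:**
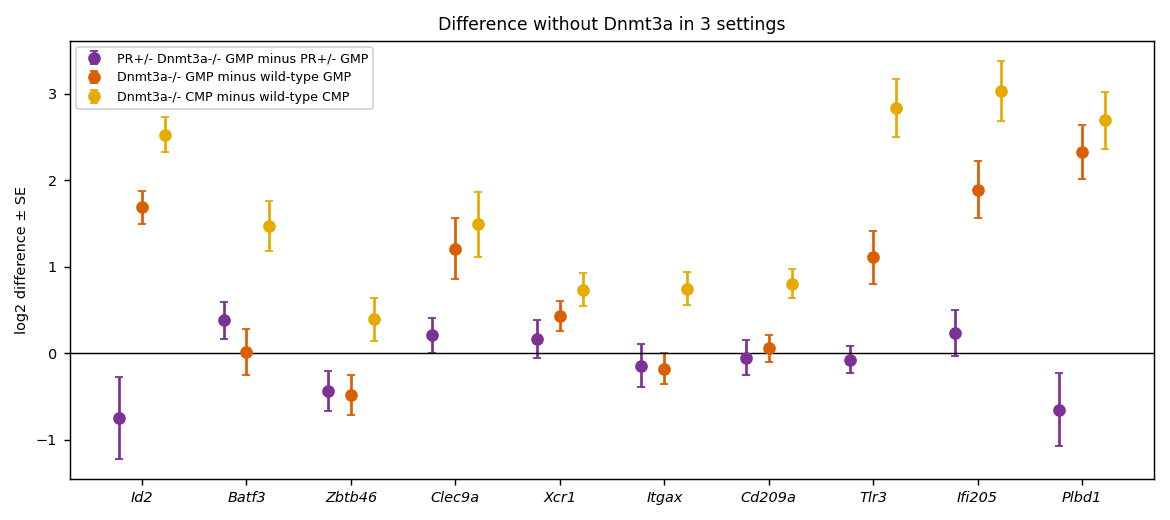
Log2 difference with its standard error for each of the 10 genes in PR+/- Dnmt3a-/- against PR+/- GMP, Dnmt3a-/- against wild-type GMP and Dnmt3a-/- against wild-type CMP. Every CMP point lies above its GMP point, and all PR+/- points lie between -0.75 and 0.38.

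The 6 PR+/- arrays are not those of the Dnmt3a comparisons known when the genes were chosen, and here the genes were tested. Whether values of the PR+/- arrays were also known then is not recorded. None of the 10 was called in PR+/- Dnmt3a-/- GMP against PR+/- GMP (limma, adjusted p of 0.6535 to 0.954), and in all 10 the arrays overlapped, whereas 8.28% of all genes were higher and 12.3% lower without overlap. Of all genes 0.0% were called and 1256 had an unadjusted p below 0.05, so this comparison of 4 with 2 arrays called nothing, and Dnmt3a itself (-1.05 ± 0.18) had an adjusted p of 0.4778 by limma. The lack of a call therefore does not show that a gene was unchanged. Of the 10 differences 4 were above 0, and the median was -0.06, against -0.03 over all genes. Tlr3 differed by -0.07 (95% interval -0.44 to 0.29), Clec9a by 0.21 (-0.26 to 0.67) and Ifi205 by 0.23 (-0.39 to 0.86), each from levels below the background median in both groups, where differences may be hidden. Id2 differed by -0.75 (95% interval -1.85 to 0.35; limma adjusted p = 0.6719). Its 2 lowest arrays, PR+/- Dnmt3a-/- replicates 1 and 2, are those of high immediate early genes, and without them the difference was -0.11. Plbd1 differed by -0.65 (95% interval -1.63 to 0.33; limma adjusted p = 0.678) and by -0.44 without these arrays. In the fit of all GMP arrays the Dnmt3a effect with PR minus that without was -2.98 ± 0.57 for Plbd1 and -2.43 ± 0.49 for Id2, given as descriptions, since the effect without PR was known when the genes were chosen. None of the 10 was called there, and of all genes 0.0317% were called, all 5 lower.

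Without PR but across populations, each of the 10 genes had a lower mean in GMP than in CMP, in wild type and without Dnmt3a. Of all genes, 55.8% were higher in GMP in wild type and 48.7% without Dnmt3a. In wild type the differences of Batf3 (-0.08 ± 0.27), Zbtb46 (-0.16 ± 0.23), Cd209a (-0.16 ± 0.16) and Xcr1 (-0.19 ± 0.18) were small, with overlap. In wild type Clec9a was lower by at least 2.54 against background, Ifi205 by at least 1.40, and Plbd1 was 3.06-fold and Id2 2.01-fold lower. Of the 10, 6 (Clec9a, Ifi205, Plbd1, Id2, Itgax and Tlr3) did not overlap, beside 6.65% of all genes lower without overlap. Limma called 5 of them (not Tlr3), beside 2.43% of all genes called lower and 1.87% called higher, and nothing is read from these counts, since the wild-type arrays were used in choosing the genes. The call of Itgax was lost in 5 of 7 fits without 1 array (all but those without replicate 2 of either population) and its difference was -0.84 to -0.60 over all settings. That of Plbd1 was lost without wild-type CMP replicate 1. Without Dnmt3a all 10 genes were lower in GMP than in CMP without overlap, beside 15.1% of all genes. Limma called 9 (not Xcr1), beside 4.58% of all genes called lower, with the median at -1.74, against -0.01 over all genes. Nothing is read from these counts either, since the Dnmt3a-/- arrays were also used in choosing the genes. The call of Zbtb46 was lost in 4 of 6 fits without 1 array, all but those without Dnmt3a-/- GMP replicate 3 or Dnmt3a-/- CMP replicate 1. These arrays were numbered consecutively in pairs of CMP and GMP, and with the pairs as a random or a fixed block the same 9 of the 10 genes were called, and 2060 or 1826 of all genes instead of 1590. Ifi205 was lower by 3.13 ± 0.35, or 8.77-fold, Clec9a by 2.90 ± 0.37, or 7.46-fold, and Tlr3 by 2.38 ± 0.33, or 5.19-fold.

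In PR+/- GMP against wild-type GMP, Id2 was higher by 2.29 ± 0.37, or 4.89-fold, and Plbd1 by 0.80 ± 0.43, both without overlap. Such gaps were seen in 16.1% of all genes with 2 against 4 arrays. Limma called Id2 alone, beside 2.19% of all genes called higher. Its call was lost without PR+/- GMP replicate 1, where the difference was 2.44. The other 8 genes overlapped, and the median of the 10 was 0.04. In PR+/- Dnmt3a-/- GMP against Dnmt3a-/- GMP 4 genes were lower without overlap, beside 6.69% of all genes. These were Plbd1 (-2.17 ± 0.38), Ifi205 (-2.09 ± 0.26, at least -1.30 against background), Clec9a (-1.58 ± 0.23, at least -1.13) and Tlr3 (-1.24 ± 0.19, at least -0.33). All 4 were called, beside 0.558% of all genes called lower and 1.24% called in either direction. The call of Plbd1 was lost without Dnmt3a-/- GMP replicate 1 (-1.89) or 2 (-2.22), and that of Tlr3 without replicate 2. None of the 10 was higher without overlap, beside 8.06% of all genes. Id2 did not follow them, with levels that overlapped and a difference of -0.14 ± 0.32. Both comparisons share arrays with those above, so nothing is read from their counts. They set arrays with PR against arrays without, so the array set and the PR allele cannot be told apart.

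Within a group the 10 genes moved together most clearly in Dnmt3a-/- CMP. Replicate 1 was the lowest of the 3 arrays for all 10 genes and replicate 3 the highest for 8, and the mean of the 10 was 6.58, 7.05 and 7.36 on replicates 1 to 3. All 3 had neutrophil marker levels above those of wild-type CMP, and replicate 1 had the highest, 11.24 against 9.87 and 9.80, while it had the lowest MHC class II level, 9.17 against 9.66 and 10.12. Whether these marker levels reflect differences in cell makeup, and what part such differences have in the gene levels, was not tested. Across the 19 arrays, which share their 6 groups, Clec9a and Ifi205 were the most alike pair (r = 0.96) and Id2 and Zbtb46 the least (r = 0.28). Against the mean of the other 9, Ifi205 (r = 0.96), Tlr3 (0.96) and Plbd1 (0.91) followed closest, and Zbtb46 (0.56) and Id2 (0.68) least.

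Among 2250 genes with an SD of at least 0.5 over the 19 arrays, those most like the mean of the 10 were Slamf7 (r = 0.96), Rnd3, Ciita and Cd74 (0.95 each) and Cysltr2 (0.95). Cd74, the class II invariant chain, had group means of 5.76 in PR+/- Dnmt3a-/- GMP and 5.32 in PR+/- GMP, 10.71 in Dnmt3a-/- CMP and 7.64 in wild-type CMP, and 8.29 in Dnmt3a-/- GMP and 5.47 in wild-type GMP. Most like Id2 were other genes, namely Crip1 (r = 0.94), Samd9l and Mrpl52 (0.90 each), Itga2b (0.88), the platelet integrin, and Casp6 (0.86). Itga2b shared with Id2 the high level in PR+/- GMP, 8.14 against 5.84 in wild-type GMP. These correlations rest on the same arrays and groups and are given as descriptions.

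Of 27 further genes of the cDC1 program, 22 were measured. This list and those below were chosen with earlier results of these data known. Their counts and p-values in the comparisons without PR are therefore descriptions and no independent support. In Dnmt3a-/- CMP 5 of them rose and none fell, beside 0.919% and 0.361% of all genes. For all lists these words mean a limma adjusted p below 0.05. The list median was 0.55 against -0.04 over all genes. The lysosomal amidase Naaa, an enzyme enriched in cDC1, rose by 2.03 ± 0.24 (limma adjusted p = 0.001111), and Ciita, the master activator of class II genes, by 1.58 ± 0.20 (limma adjusted p = 0.001779). Both calls held in every fit without 1 array. Gcsam (limma adjusted p = 0.03431) and the receptor gene Gpr141b (limma adjusted p = 0.0403) also rose, by at least 0.99 and 1.27 against background, since their wild-type means of 2.93 and 3.49 lay below it. Their calls were lost in 6 and 5 of 6 such fits, Gpr141b keeping its call only without Dnmt3a-/- CMP replicate 1. The repressor Bcl6 rose by 1.48 ± 0.25 (limma adjusted p = 0.01459), a call lost without Dnmt3a-/- CMP replicate 2 or 3. The cDC1 regulators upstream of Batf3 did not pass in CMP. Irf8 averaged 9.09 ± 0.37 in Dnmt3a-/- CMP and 9.16 ± 0.30 in wild-type CMP (SD, n = 3 each), and Nfil3 5.78 ± 0.56 and 6.48 ± 0.40. Flt3, the receptor of the growth factor for dendritic cells, averaged 8.20 ± 0.24 in Dnmt3a-/- CMP and 8.39 ± 0.18 in wild-type CMP.

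In Dnmt3a-/- GMP 1 gene of this list rose and 2 fell, beside 0.9% and 0.431% of all genes. Irf8 had 7.68 to 8.09 in Dnmt3a-/- GMP and 8.39 to 9.37 in wild-type GMP, and fell by 1.18 on the log2 scale (SE 0.24; limma adjusted p = 0.03416). Zeb2, a repressor needed in other myeloid and dendritic lineages, fell by 0.65 (SE 0.13; limma adjusted p = 0.0342), and the endocytic receptor Ly75 rose by 0.98 ± 0.22 (limma adjusted p = 0.04899). The Irf8 call was lost in 6 of 7 fits without 1 array, all but that without wild-type GMP replicate 2, and those of Zeb2 and Ly75 in 5 each. Zeb2 kept its call without wild-type GMP replicate 2 or Dnmt3a-/- GMP replicate 2, and Ly75 without wild-type GMP replicate 1 or 2. The other 19 genes of the list did not pass. In PR+/- Dnmt3a-/- GMP against PR+/- GMP none of the 22 passed. Irf8 there averaged 6.22 ± 0.76 in PR+/- Dnmt3a-/- GMP (n = 4) and 7.06 ± 0.63 in PR+/- GMP (n = 2). The lowest Irf8 levels were thus on the PR+/- arrays, where Clec9a, Tlr3 and Ifi205 were also at background. Wild-type GMP, with Irf8 at 9.03, likewise had Clec9a, Tlr3 and Ifi205 means below the background median (3.77, 3.07 and 3.26). In Dnmt3a-/- GMP, with Irf8 at 7.85, these means were 4.98, 4.18 and 5.14. A link between Irf8 and these genes was not tested.

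Lists of relatives and partners of the 10 genes were read in the same way. Of 6 Id and E protein genes none passed in CMP or GMP, and Tcf12, an E protein, averaged 8.04 in both Dnmt3a-/- and wild-type CMP. Of 8 measured AP-1 and BATF genes and 4 measured HIN-200 genes none passed in either. Ifi203 of the Ifi205 cluster averaged 7.86 ± 0.33 in Dnmt3a-/- CMP and 7.12 ± 0.12 in wild-type CMP (SD, n = 3 each). Of 10 measured C-type lectins of the Clec9a and Cd209 clusters 1 rose in each population. Clec1b, a platelet receptor also known as CLEC-2, rose in CMP by at least 1.20 against background (limma adjusted p = 0.00618). Clec2d rose in GMP by 0.67 ± 0.15 (limma adjusted p = 0.04646), a call lost in all 7 fits without 1 array. Among 10 endosomal Toll-like receptor and adaptor genes Tlr7, a receptor for single-stranded RNA, rose in GMP by at least 1.66 against background, its wild-type mean of 3.68 lying below it (limma adjusted p = 0.0135). That call was lost without Dnmt3a-/- GMP replicate 1, and none of the list passed in CMP. Itgb2, the beta chain that pairs with CD11c, rose by 1.18 ± 0.21 in CMP (limma adjusted p = 0.0153) and by 0.91 ± 0.19 in GMP (limma adjusted p = 0.03612). Its call in CMP was lost without Dnmt3a-/- CMP replicate 1 or wild-type CMP replicate 2, and that in GMP in 5 of 7 such fits, all but those without wild-type GMP replicate 1 or 2.

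Markers of other cells that a sort of progenitors could hold were read beside the 10 genes. Of 11 measured markers of type 2 and monocyte-derived dendritic cells none passed in CMP, with mean levels of 5.52 to 5.62 in Dnmt3a-/- and 5.37 to 5.58 in wild-type CMP. Nor did any of 11 plasmacytoid dendritic cell markers (5.81 to 6.24 and 5.74 to 6.16) or of 7 markers of migratory dendritic cells (4.78 to 5.09 and 4.60 to 4.80). Of 7 class II genes 6 rose, among them Ciita, which is also counted in the cDC1 list. Of 10 neutrophil markers 3 rose, with levels of 9.80 to 11.24 in Dnmt3a-/- CMP and 8.90 to 8.91 in wild-type CMP, and 4 of 9 erythroid and megakaryocyte markers rose. Of 7 measured B cell markers 2 rose, Ms4a1 (wild-type mean below background) and Cd22, with list levels of 5.51 to 5.79 in Dnmt3a-/- CMP and 4.89 to 6.19 in wild-type CMP. Of 14 monocyte markers 2 rose and 3 fell. In Dnmt3a-/- GMP 1 of the 11 type 2 markers rose (Il1r2, wild-type mean below background, a call lost in 6 of 7 fits without 1 array). None of the plasmacytoid, migratory or B cell markers passed. In this comparison 4 of 10 neutrophil, 3 of 10 basophil and mast cell, 3 of 9 erythroid and megakaryocyte and 4 of 7 class II genes rose, and 2 of 14 monocyte markers (Csf1r and Ly86) fell. None of these lists had a gene past the threshold in PR+/- Dnmt3a-/- GMP against PR+/- GMP. What part the cells behind these markers have in the levels of the 10 genes was not tested.

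**Figure D4:**
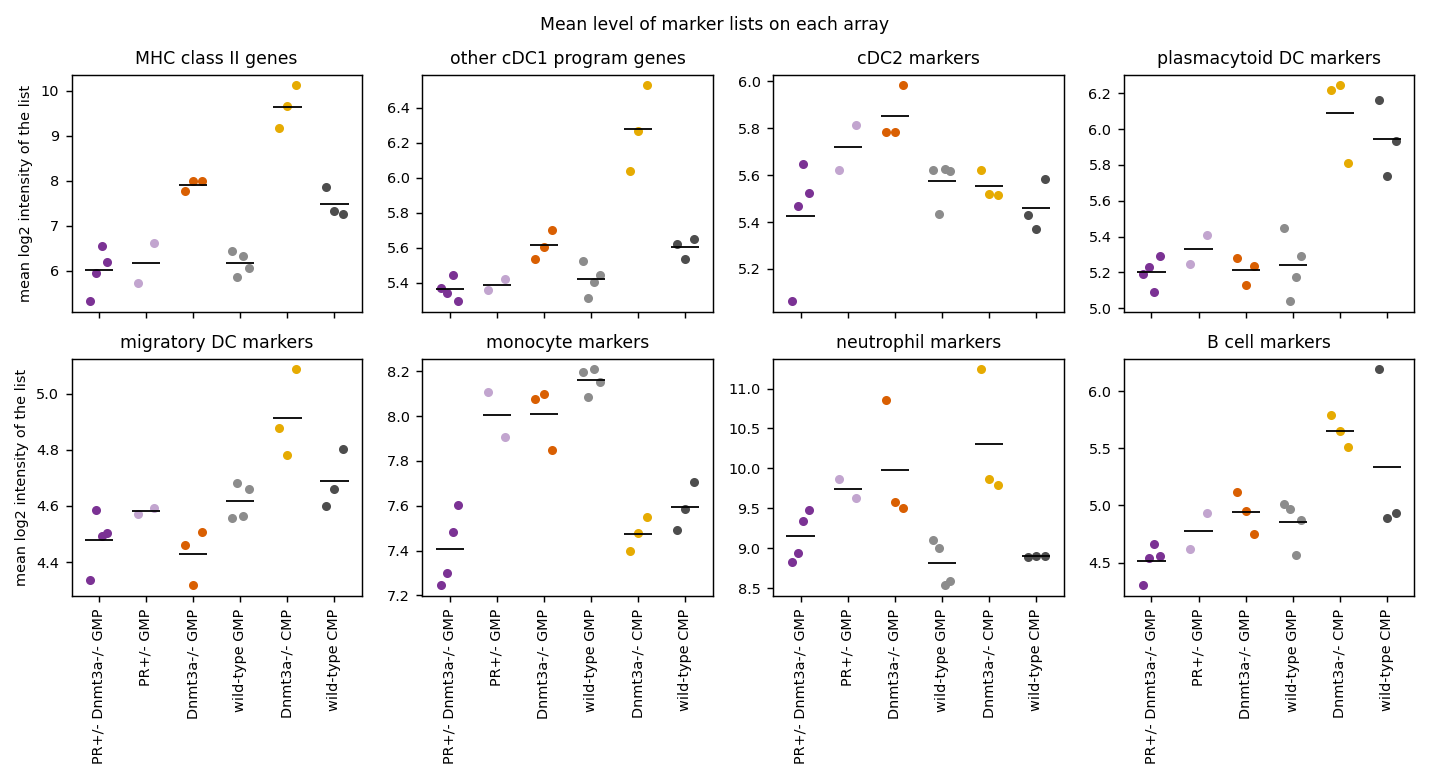
Mean log2 level of 8 marker lists on each of 19 arrays by group, with a point per array and a bar at the group mean; the vertical scale differs between panels. Class II genes and the other cDC1 program genes are highest in Dnmt3a-/- CMP, while the type 2 dendritic cell list overlaps between Dnmt3a-/- and wild-type CMP and the neutrophil list is higher on all 3 Dnmt3a-/- than on all wild-type arrays in both CMP and GMP, with replicate 1 the highest in each.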

How the data were processed

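Levels come from a table that the authors deposited, with 1 linear intensity for each exon-level probe set on each array (194293 probe sets, 19 arrays, array medians of 53.0 to 56.8). Per the labels, 20 ng of total RNA was amplified and labelled with biotin. RMA, Partek and mm9 stand in the list of tools and builds per the submitters' processing notes, with no role or version, and the sources used here do not give the choice of probe sets. The log2 of the deposited intensities was averaged over the probe sets that carry 1 gene symbol alone (179496 probe sets, 15781 genes, median 9 per gene). The 10 genes rest on 3 to 28 probe sets each, and none shares a probe set with another gene. A RefSeq gene table was used to update 2039 old symbols, and Plbd1 is annotated as 1100001H23Rik.

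Groups were compared with limma 3.58.1 (R 4.3.3; lmFit, eBayes), two-sided, adjusted over all genes by the Benjamini-Hochberg method, threshold 0.05. The 13 arrays without PR share 1 fit, the Dnmt3a comparison with PR uses the 6 PR+/- arrays, and the comparisons across PR use the 13 GMP arrays. The fits were run on simulated data with independent noise, as a check on the size of the estimates and not of the calls. The 10 genes and all gene lists were chosen with earlier results of these data known, so p-values of the 10 are given only for the PR+/- arrays. Those of list genes in the comparisons without PR are given as descriptions. Background is the median of genes of other tissues. Where a group mean lies under it, "at least" gives the distance from that median, a point estimate with no error. All 10 genes are named. From the other lists, up to 4 genes past the threshold with the largest differences are named, and Bcl6, Irf8, Nfil3 and others beyond that after their values were seen. Alternatives were other summaries of probe sets, quantile normalization, a filter on dim genes, other sets of arrays, array weights, Y-linked signal as a covariate, the replicate number as a block and each array left out. The arrays' number limits the precision. Whether the arrays of a group come from different animals is not labelled, so the p-values cover only the spread between the arrays, which may be technical. PR+/- arrays that share a replicate number were not alike across genes (r = 0.0774 and 0.0169), so the numbers were not used as pairs. The sample titles number the Dnmt3a-/- CMP and GMP arrays consecutively, 1 of each in turn. Such neighbours deviated together from their group means (r = 0.121, 0.139 and 0.171), so a block for them was run. For the comparisons of GMP with CMP and across PR, and for this block between Dnmt3a-/- GMP and CMP, the alternatives were chosen after seeing the data.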

Additional observations from a re-analysis of the deposited data

How the results depend on the processing

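The direction of Id2, Clec9a, Tlr3, Ifi205 and Plbd1 in Dnmt3a-/- CMP and GMP against wild type was the same in every alternative run. In CMP the number of genes called, 202, was 95 with the median of the probe sets, 1064 with array weights, 450 without the 5 arrays of high immediate early genes, 100 with only these 2 groups, 63 with Y-linked signal added as a covariate and 61 to 211 without 1 array. In GMP the number, 210, was 99 with the median, 135 with the brighter probe sets, 1734 with weights, 75 with only these 2 groups, 48 with the Y-linked covariate and 49 to 262 without 1 array. With weights 5 of the 10 genes were called in GMP. Their median difference in GMP, 0.77, was 0.64 with the brighter probe sets, 0.89 with weights, 0.69 without the 5 arrays, 0.59 with the Y-linked covariate and 0.65 to 0.90 without 1 array. The cause of these shifts was not tested. In PR+/- Dnmt3a-/- GMP against PR+/- GMP, 21 genes were called with all 19 arrays in 1 fit and 1 with weights, none of the 10 among them. Differences there that changed sign were -0.38 for Batf3 with the brighter probe sets, -0.12 for Xcr1, 0.24 for Cd209a and -0.41 for Ifi205 with the median, -0.06 for Clec9a and 0.18 for Cd209a without PR+/- GMP replicate 1, and 0.02 for Cd209a without PR+/- Dnmt3a-/- GMP replicate 4. Without 1 array, Clec9a ran from -0.059 to 0.47 and Cd209a from -0.28 to 0.18. With the replicate number as a block, only replicates 1 and 2 enter the difference, since PR+/- GMP has no others. The PR+/- Dnmt3a-/- arrays left are then those of high immediate early genes. With this block Itgax was 0.12, Cd209a 0.10 and Id2 -1.39 (limma adjusted p = 0.1982), and 0 genes were called (2549 at an unadjusted p below 0.05). The pairing by number is not shown by the labels or the data, and the block changed no call of the 10 genes. With consecutively numbered Dnmt3a-/- CMP and GMP arrays as a random block, 201 genes were called in CMP and 215 in GMP, with 6 and 3 of the 10 among them. Zbtb46, Xcr1, Itgax and Cd209a are near background in most groups, which limits what their differences can show.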
